A study of Peromyscus californicus with 17 samples.

Results

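The 8 genes described here mark type 1 alveolar cells in mammalian lung: *Ager*, *Hopx*, *Cav1*, *Emp2*, *Rtkn2*, *Aqp5*, *Clic5* and *Pdpn*. They were chosen by name as known markers of this cell type, and all 8 were found among the 27786 genes of the lung table.

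Type 1 alveolar cells are broad, extremely thin cells that cover most of the gas exchange surface, while the compact type 2 alveolar cells between them make surfactant and can give rise to new type 1 cells after injury. The thin cells carry water channels and ion transporters, rich caveolae, and a set of membrane proteins that anchor them to the matrix shared with the capillary. Their transcripts are therefore read as a measure of the gas exchange epithelium in whole lung RNA.

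RNA sequencing was performed on whole lung of 17 males of *Peromyscus californicus*, a monogamous deer mouse kept as the genetically diverse stock IS and older than a year. The 6 bonded males (B1 to B6) had lived with a partner for 4 months when the lung was taken. The 6 bond-disrupted males (BD1 to BD6) had also been paired for 4 months, were then taken out of the mating cage, and gave lung 7 days later. The 5 virgin males (V2 to V6) were of similar age and were housed in groups. These were 3 to a cage by the labels, while the study's text also allows smaller groups. Pairing and housing company thus differed together between virgins and the other groups. Bond-disrupted males had also lost the partner's company, and the study describes its bond-disrupted serum donors as housed alone. Loss of the bond and change of company therefore cannot be told apart in bond-disrupted against bonded males. Each library came from 1 animal, and animals with the same number are relatives, brothers for the most part and cousins for some virgins, V3 among them. The samples share tissue, sex and stock. In whole tissue, fewer cells of a type and less RNA per cell cannot be told apart.

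The values are FPKM, read counts scaled to the length of the gene and to the depth of the library. As deposited, each animal's column was divided by the length of a different gene, so that neighbouring columns used neighbouring rows of the gene list. Depth was first set from the reference lengths of small RNA genes. The lengths were then recovered from the values themselves, because the correct length turns almost every value back into a whole number of reads. With the recovered dividing length, 132 of the 136 values of the 8 genes were whole within 0.01 reads. With the gene's own length only 3 of the 136 were. Whole reads were also the rule that picked the dividing lengths, so these counts describe the recovery and do not test it. Depth was between 30.8 M and 68.2 M reads per library, and the smallest count behind any value of the 8 genes was 1396 reads, for *Pdpn* in B6.

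The size of the correction can be read from *Emp2*. In BD3 its deposited value was 19764 FPKM, because it had been divided by the 72 bases of a small nucleolar RNA gene, and with its own length of 3285 bases the value was 433 FPKM. In B5 the deposited value was 81.1 FPKM, after division by the 14996 bases of *Grin2a*, and the value with its own length was 370 FPKM. Across the 17 animals the deposited values of *Emp2* spanned 244-fold and those with its own length 2.01-fold. The span fell from 164-fold to 3.37-fold for *Clic5*, from 112-fold to 4.35-fold for *Aqp5*, and from 17.6-fold to 2.07-fold for *Ager*. All levels below are own-length FPKM.

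**Figure D1:**
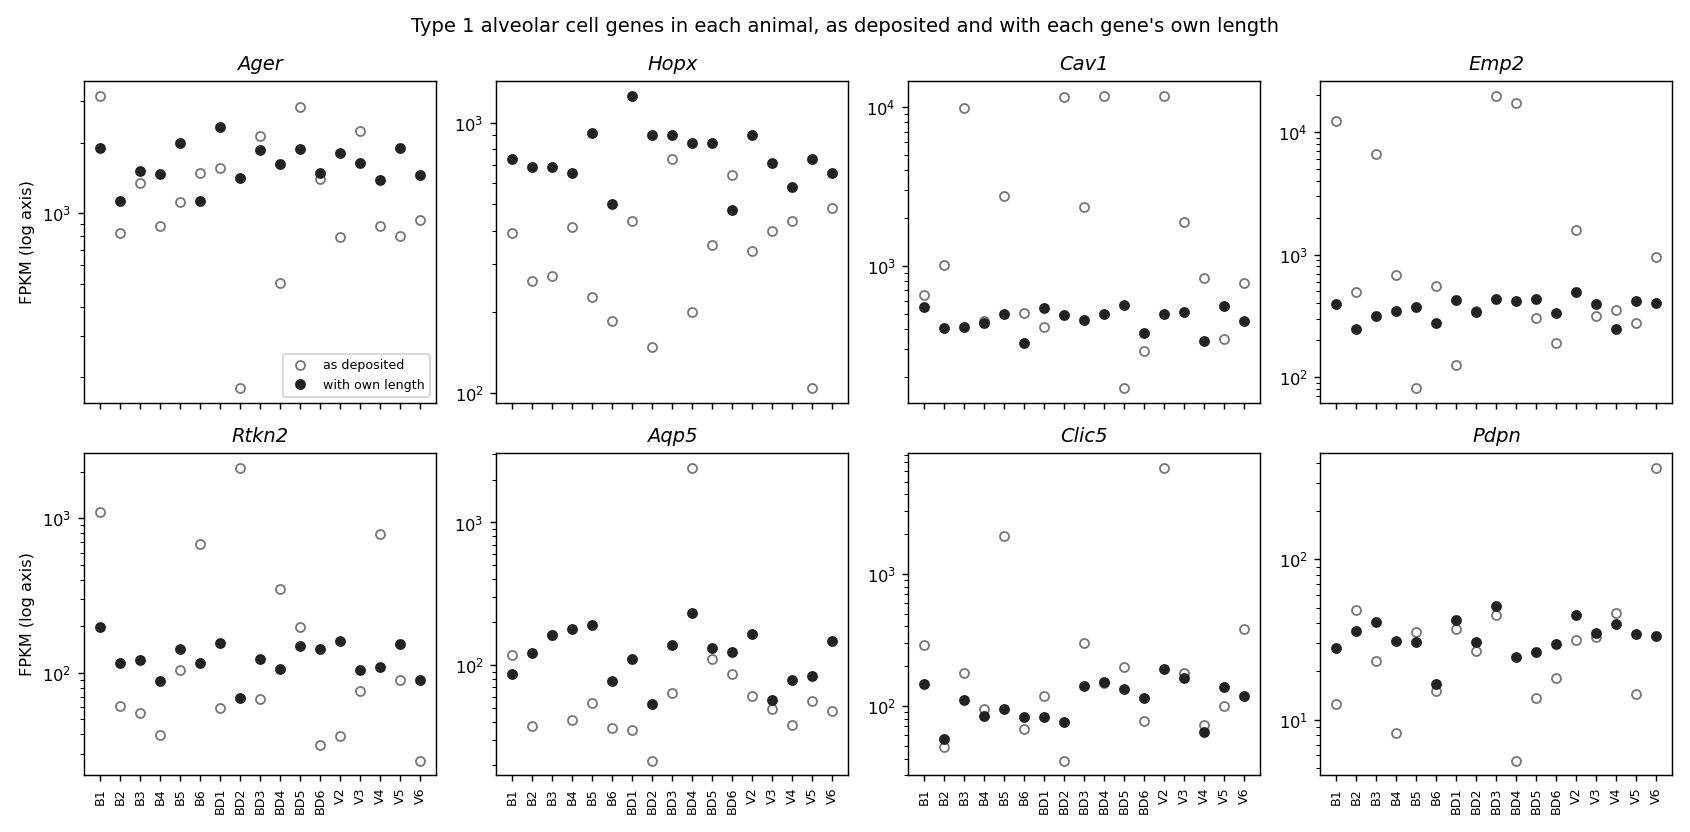
FPKM (log axis) of each of the 8 genes in each of the 17 animals, as deposited (open circles) and with the gene's own length (filled circles). The deposited values of *Emp2* run from 81.1 to 19764, and the own-length values from 246 to 496.

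All 8 genes were well above the detection limit in every lung, over a range of 48.7-fold between the highest and the lowest mean. *Ager*, the receptor for advanced glycation end products on the basal face of type 1 cells, averaged 1642 ± 318 FPKM (SD, n = 17). *Hopx*, a small homeodomain protein of the nucleus, averaged 766 ± 189 FPKM. *Cav1*, the coat protein of caveolae, averaged 465.5 ± 74.2 FPKM, and *Emp2*, a membrane protein of the PMP22 family, 370 ± 70.7 FPKM. *Rtkn2* stood at 126 ± 32.2 FPKM, *Aqp5*, the water channel of the apical membrane, at 126 ± 50.2 FPKM, and *Clic5*, a chloride intracellular channel protein tied to the actin cortex, at 115 ± 37.8 FPKM. *Pdpn*, the mucin-type glycoprotein podoplanin, was lowest at 33.7 ± 8.22 FPKM.

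This order held inside each animal for its upper part. In 17 of 17 lungs *Ager* was above *Hopx*, *Hopx* above *Cav1*, *Cav1* above *Emp2*, and *Emp2* above *Rtkn2*. *Rtkn2*, *Aqp5* and *Clic5* were not ordered, since each exceeded the next in only 9 of 17 animals. *Clic5* exceeded *Pdpn* in 17 of 17. Only the steps from *Emp2* to *Rtkn2* and from *Clic5* to *Pdpn* left no overlap between the ranges of neighbouring genes over all animals.

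The genes varied between animals by different amounts. *Cav1* was the steadiest, with a standard deviation of 0.24 on the log2 scale, above that of 61.9% of the 13192 genes that averaged 100 reads or more. *Ager* (0.28), *Emp2* (0.29), *Hopx* (0.35), *Pdpn* (0.36) and *Rtkn2* (0.38) followed. *Clic5* (0.50) varied more than 92.6% and *Aqp5* (0.61) more than 95.8% of those genes, whose median was 0.20. The spread within groups was close to the spread over all animals, at 0.28 for *Ager*, 0.49 for *Clic5* and 0.63 for *Aqp5*.

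None of the 8 genes differed between bonded, bond-disrupted and virgin males beyond the spread between animals. In limma's test across all 14928 genes that reached 1 FPKM in 1 or more animals, 0 of 8 passed an adjusted p of 0.1 with a change of at least 2-fold in any of the 3 comparisons. None of the 14928 genes passed either, so percent called was 0 for bond-disrupted against bonded, 0 for virgin against bonded and 0 for virgin against bond-disrupted males. At an unadjusted p under 0.05 the 8 genes gave 0 in each comparison, where 5.66%, 3.54% and 4.14% of all genes did in that order. By direction, 0 of 8 were higher and 0 of 8 lower at that p in bond-disrupted against bonded males, against 2.67% and 2.99% of all genes. In virgin against bonded males both were also 0, against 2.06% and 1.48%, and in virgin against bond-disrupted males both were 0, against 2.15% and 1.99%. A second model, voom on the recovered reads, also called 0 genes in each comparison. The ranges of the groups overlapped for 8 of 8 genes in each comparison, whereas 0.248%, 0.489% and 0.221% of all genes had groups that did not overlap. These fits take the animals as independent, although animals of the same number are related. With the number as a block in limma, *Ager* alone of the 8 genes fell under 0.05 before adjustment, for bond-disrupted against bonded males. Its unadjusted p was 0.0411 and its adjusted p 0.875, and 0 genes were called.

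*Ager* is the most abundant of the set. Its level in bonded lungs ran from 1128 FPKM through a median of 1488 to 1997 FPKM. In bond-disrupted lungs it ran from 1413 through 1744 to 2336 FPKM, and in virgin V2, V3, V4, V5 and V6 it was 1805, 1637, 1391, 1893 and 1451 FPKM. The groups overlapped, with BD1 above every bonded animal and B2 and B6 lowest. The log2 fold change of bond-disrupted against bonded males was 0.23 (SE 0.16, 95% interval -0.10 to 0.56, limma adjusted p = 0.891). Leaving out single animals moved it between 0.145 (without BD1) and 0.315 (without B5). Virgin males were at 0.13 (SE 0.16) against bonded males and at -0.10 (SE 0.16) against bond-disrupted males.

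*Hopx* was read at 503, 689 and 923 FPKM for the lowest, median and highest bonded animal, and at 475, 873 and 1264 FPKM for the bond-disrupted animals. The virgin animals V2 to V6 gave 906, 715, 578, 738 and 652 FPKM. BD1 was the highest and BD6 the lowest lung of all 17, so the bond-disrupted group alone held both ends of the range. The log2 fold change of bond-disrupted against bonded males was 0.28 (SE 0.19, 95% interval -0.12 to 0.68, limma adjusted p = 0.891). Without BD6 this difference was 0.45, with an unadjusted limma p of 0.00886, and without BD1 it was 0.17. Its adjusted p over all fits tried stayed between 0.777 and 0.999.

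*Cav1* stood at 327, 424 and 554 FPKM for the lowest, median and highest bonded animal, at 377, 496 and 563 FPKM for bond-disrupted animals, and at 498, 511, 338, 558 and 448 FPKM in V2 to V6. B6, V4 and BD6 were lowest in their groups and the groups overlapped. Its log2 fold changes were 0.16 (SE 0.14) for bond-disrupted against bonded, 0.10 (SE 0.15) for virgin against bonded and -0.06 (SE 0.15) for virgin against bond-disrupted males. When the length effects were removed by least squares instead, the first of these was -0.0963 and the second -0.10. Leaving out single animals moved the second between 0.0198 (without B6) and 0.21 (without V4).

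*Emp2* had the lowest unadjusted p of the 8 genes in the fit without a block. Bonded lungs held 247, 328 and 392 FPKM as lowest, median and highest values, and bond-disrupted lungs 334, 424 and 436 FPKM. V2 to V6 gave 496, 393, 246, 416 and 403 FPKM. Of the bond-disrupted animals 4 of 6, and of the virgins 4 of 5, lay above every bonded animal, while V4 lay below all of them. The log2 fold change of bond-disrupted against bonded males was 0.31 (SE 0.15, 95% interval -0.01 to 0.63), with an unadjusted limma p of 0.0601 and an adjusted p of 0.883. Leaving out V4, which enters through the shared variance, took that unadjusted p to 0.0195 and the adjusted p to 0.809. For virgin against bonded males the log2 fold change was 0.25 (SE 0.16). Without V4 it was 0.41, and its unadjusted limma p fell from 0.130 to 0.00679. With the length effects removed by least squares instead, it was -0.0183. The adjusted p over the fits tried stayed between 0.865 and 1 for virgin and between 0.647 and 0.999 for bond-disrupted against bonded males. Both comparisons share the bonded animals. Against the bonded animal of the same number, *Emp2* was higher in 6 of 6 bond-disrupted and in 4 of 5 virgin animals. Among bond-disrupted animals *Ager*, *Cav1* and *Clic5* were higher in 5 of 6, *Hopx* and *Rtkn2* in 4, and *Aqp5* and *Pdpn* in 3. Among virgins *Cav1*, *Clic5* and *Pdpn* were also higher in 4 of 5, *Ager*, *Hopx* and *Rtkn2* in 3, and *Aqp5* in 2.

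*Rtkn2* showed the flattest group means, at 130 ± 37.1 (SD, n = 6), 125 ± 33.1 (n = 6) and 124 ± 31.9 FPKM (n = 5) for bonded, bond-disrupted and virgin males. Bonded animals spanned 89.3 to 198 FPKM around a median of 119, and bond-disrupted animals 68.6 to 156 FPKM around 133. V2 to V6 gave 162, 105, 110, 154 and 89.7 FPKM. B1 was the highest and BD2 the lowest lung. The log2 fold changes were -0.07 (SE 0.22) for bond-disrupted against bonded, -0.07 (SE 0.23) for virgin against bonded and 0.01 (SE 0.23) for virgin against bond-disrupted males, and each changed sign when single animals were left out.

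*Aqp5* had the widest scatter. Its level was 77.6, 141 and 193 FPKM for the lowest, median and highest bonded animal, 53.3, 127 and 232 FPKM for bond-disrupted animals, and 167, 57.0, 78.9, 83.9 and 147 FPKM in V2 to V6. BD2 was lowest and BD4 highest, so the bond-disrupted group covered the range of all animals. The virgin mean was the lowest, with a log2 fold change of -0.38 against bonded males (SE 0.35, 95% interval -1.13 to 0.36, limma adjusted p = 1). The interval reached beyond a 2-fold decrease, so a change of that size could not be told from none. Bond-disrupted against bonded males gave -0.10 (SE 0.34).

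*Clic5* had its lowest mean in bonded males. Bonded animals spanned 56.0 to 147 FPKM around a median of 89.6, bond-disrupted animals 75.2 to 152 FPKM around 124, and V2 to V6 gave 189, 162, 63.5, 139 and 120 FPKM. V2 and V3 lay above every other animal and V4 near the bottom, so the virgin group held almost the whole range. The log2 fold change of virgin against bonded males was 0.46 (SE 0.28, 95% interval -0.13 to 1.05, limma adjusted p = 1), the largest of the 24 estimates for the 8 genes. For bond-disrupted against bonded males it was 0.29 (SE 0.27). Without V4 the difference of virgin against bonded males was 0.70, with an unadjusted limma p of 0.0126. Its lowest adjusted p over the fits tried was 0.865.

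*Pdpn* was at 16.8, 30.8 and 40.6 FPKM for the lowest, median and highest bonded animal and at 24.5, 30.01 and 51.3 FPKM for bond-disrupted animals. V2 to V6 lay close together at 44.7, 34.9, 39.4, 34.2 and 33.3 FPKM. B6 was the lowest lung of all, and BD3 was the highest lung. The log2 fold changes were 0.32 (SE 0.21) for virgin against bonded and 0.15 (SE 0.20) for bond-disrupted against bonded males. The second of these became -0.00684 when B6 was left out.

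**Figure D2:**
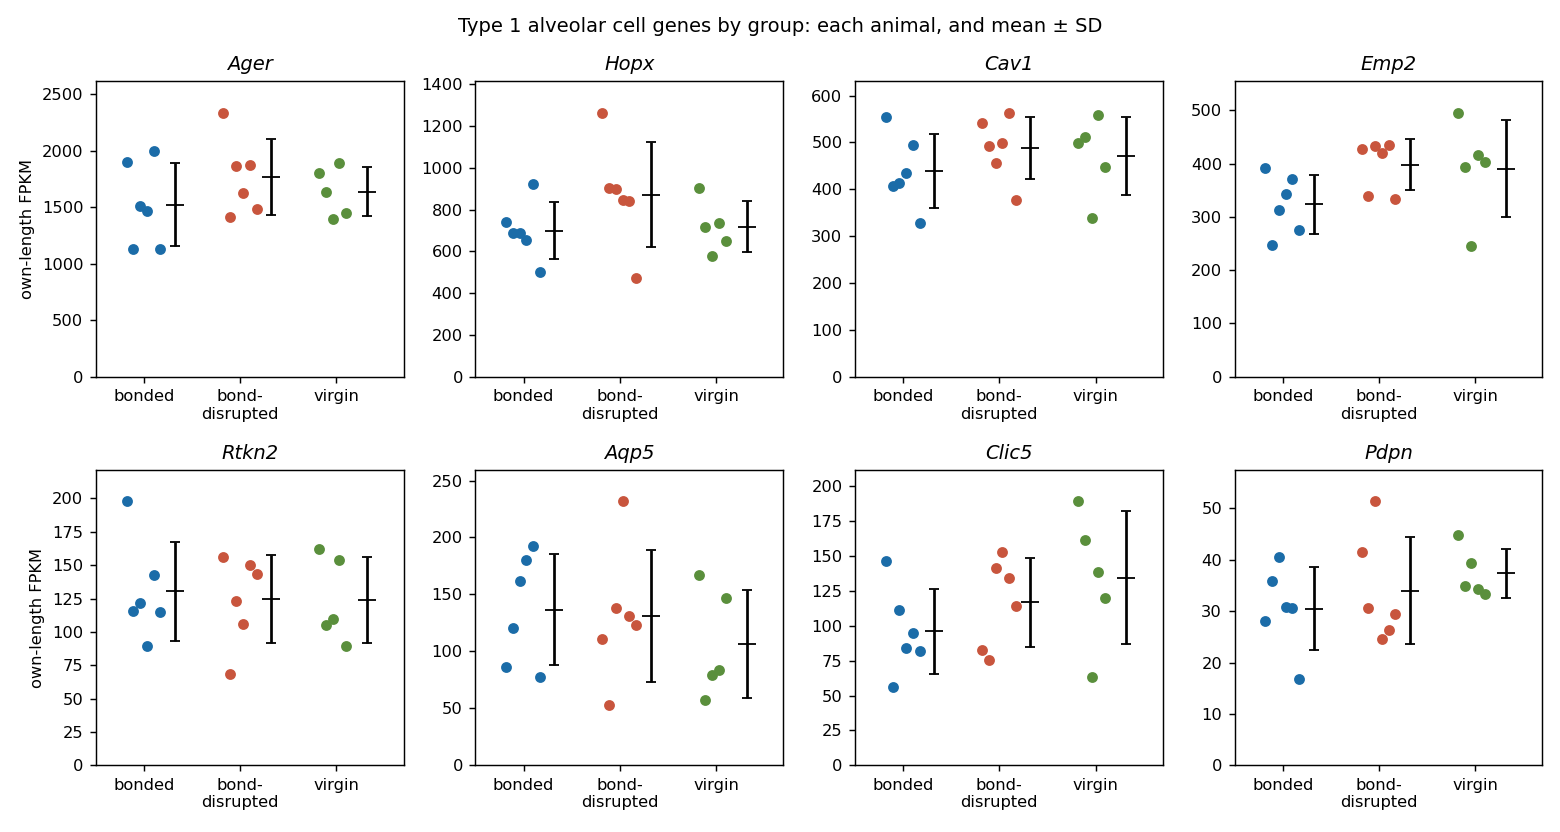
Own-length FPKM of each gene (linear axis from 0) in the 3 groups, with 6 bonded, 6 bond-disrupted and 5 virgin males. Points are animals in the order of their numbers, and the bar beside them is the mean ± SD. The ranges of the groups overlap for each of the 8 genes.

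Read as a set, the differences were small. The median log2 fold change of the 8 genes was 0.20 for bond-disrupted against bonded, 0.11 for virgin against bonded and -0.06 for virgin against bond-disrupted males, and 6, 6 and 3 of the 8 estimates were above 0. Over all 14928 genes the medians were 0.00423, 0.00632 and 0.00626, and 7654, 7788 and 7777 estimates were above 0. The direction of the set rests on estimates of which none passed the test. The 95% intervals stayed within a 2-fold change in either direction for 8 of 8 genes in bond-disrupted against bonded males. They reached past it for *Aqp5* and *Clic5* in virgin against bonded males and for *Aqp5* in virgin against bond-disrupted males.

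**Figure D3:**
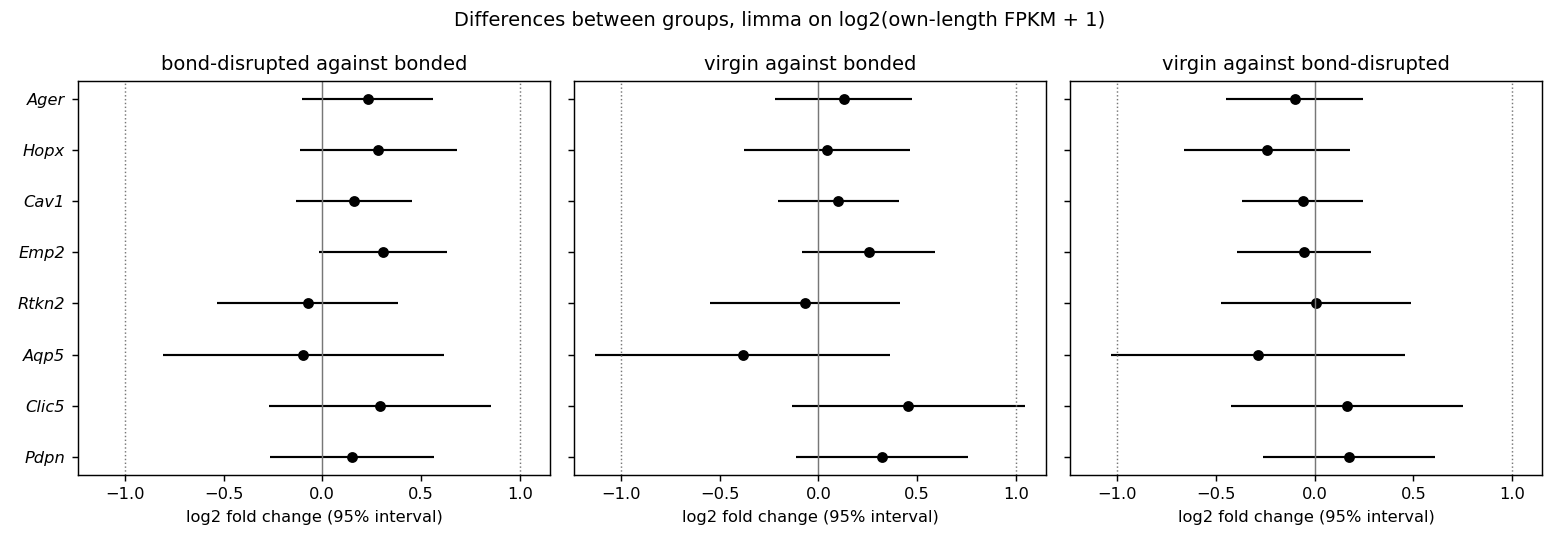
Log2 fold change (point) and 95% interval (line) of each gene in the 3 comparisons, from limma on log2(own-length FPKM + 1). The solid line marks no change and the dotted lines a 2-fold change. All 24 intervals include 0, and *Emp2* in bond-disrupted against bonded males comes nearest to leaving it out.

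Animals differed more than groups. Each gene was centred on its mean over the 17 animals on the log2 scale, and the 8 centred values were averaged. This average was lowest in bonded B6 at -0.49 and highest in virgin V2 at 0.39. B6 was below the mean for 8 of 8 genes, was the lowest of all animals for *Ager*, *Cav1* and *Pdpn*, and was among the 4 lowest for 7 genes. V2 was above the mean for 8 of 8 genes and highest for *Clic5* and *Emp2*, and BD1 was highest for *Ager* and *Hopx*. V4 was among the 4 lowest for 6 genes. The group means of the average were -0.09 ± 0.26 (SD, n = 6) for bonded, 0.07 ± 0.23 (n = 6) for bond-disrupted and 0.02 ± 0.27 (n = 5) for virgin males.

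Genes of other cells also stood apart in these animals. B6 was first of 17 for the average of 4 airway epithelium genes (1.42) and of 7 cardiac muscle genes (1.41), and last for 8 type 2 alveolar cell genes (-0.43). V4 was at rank 2 for the airway genes (0.75), at rank 12 for the cardiac genes (-0.26) and last for 21 further type 1 cell genes (-0.39). V2 was last for the airway genes (-1.14) and at rank 4 for the further type 1 genes (0.29). BD2, at rank 15 for the 8 genes (-0.31), was at rank 16 for the airway genes (-0.85) and at rank 4 for the cardiac genes (0.36). B2, at rank 14 for the 8 genes (-0.27), was at rank 3 for the airway genes (0.73). BD1 was at rank 11 for them. Depth was 45.5 M reads in B6, 43.9 M in V2 and 41.4 M in V4, beside a median of 44.0 M over all animals. Low values of the 8 genes thus occurred with high airway genes in B6, V4 and B2 and with low ones in BD2, and the part of airway or cardiac tissue in them was not tested.

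**Figure D4:**
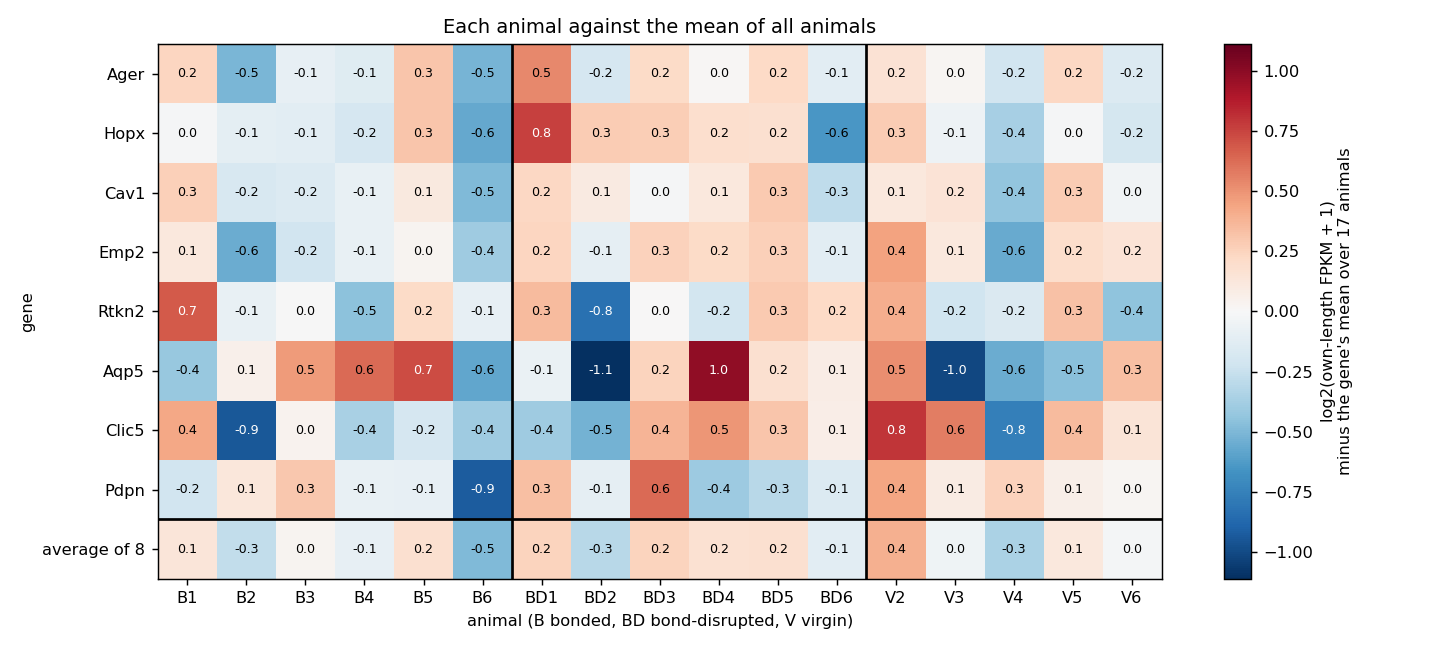
Log2(own-length FPKM + 1) of each gene minus its mean over 17 animals (colour and printed value), with the average of the 8 genes in the bottom row. Columns are animals, in groups separated by black lines. B6 is below 0 and V2 above 0 for every gene, and animals on both sides of 0 occur in each group.

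Part of the set rose and fell together across the animals. All 28 pairs among the 8 genes had a Pearson correlation above 0 over the 17 animals, with a median r of 0.342, and 8 pairs passed a permutation test after adjustment over the 28 pairs. With Spearman's rho 27 pairs were above 0 and 9 passed, *Cav1* with *Clic5* being the addition. The strongest Pearson correlation was *Clic5* with *Emp2*, at r = 0.816 (permutation p = 5e-05, adjusted p = 0.00140) and Spearman's rho = 0.728 (permutation p = 0.00156, adjusted p = 0.0136). Without the 2 animals farthest from the median of *Clic5* this r was 0.668, and between deviations from the group means it was 0.809.

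*Ager*, *Hopx*, *Cav1* and *Emp2* were linked to each other in 6 of 6 pairs. *Cav1* and *Emp2* gave r = 0.799 (permutation p = 0.00022, adjusted p = 0.00161) and rho = 0.765 (permutation p = 0.00057, adjusted p = 0.00798), and r = 0.663 without 2 animals. *Ager* gave r = 0.785 with *Emp2*, 0.778 with *Cav1* and 0.730 with *Hopx* (adjusted permutation p = 0.00161, 0.00161 and 0.00359). Their rho was 0.691, 0.806 and 0.691 (adjusted permutation p = 0.0136, 0.00532 and 0.0136), and r without 2 animals was 0.774, 0.696 and 0.520. *Hopx* gave r = 0.745 with *Cav1* and 0.616 with *Emp2* (adjusted permutation p = 0.00196 and 0.0331), rho = 0.667 and 0.647 (adjusted permutation p = 0.0171 and 0.0201), and r = 0.740 and 0.675 without 2 animals. *Ager* with *Rtkn2* was the weakest pair past the threshold, at r = 0.586 (adjusted permutation p = 0.0459), rho = 0.694 (0.0136) and r = 0.613 without 2 animals.

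*Aqp5* and *Pdpn* stood outside this group. *Aqp5* passed with 0 of 7 other genes and had a median r of 0.172, and *Pdpn* passed with 0 of 7 and had a median r of 0.181. The lowest r of all pairs was 0.0595, between *Aqp5* and *Cav1*. Of the 28 pairs, 23 kept an r above 0 without 2 animals, and 5 pairs fell below 0, each of which included *Aqp5* or *Pdpn*. Within the groups, 7 pairs passed, and the pair that no longer did was *Hopx* with *Emp2* (r = 0.587, adjusted permutation p = 0.0534).

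**Figure D5:**
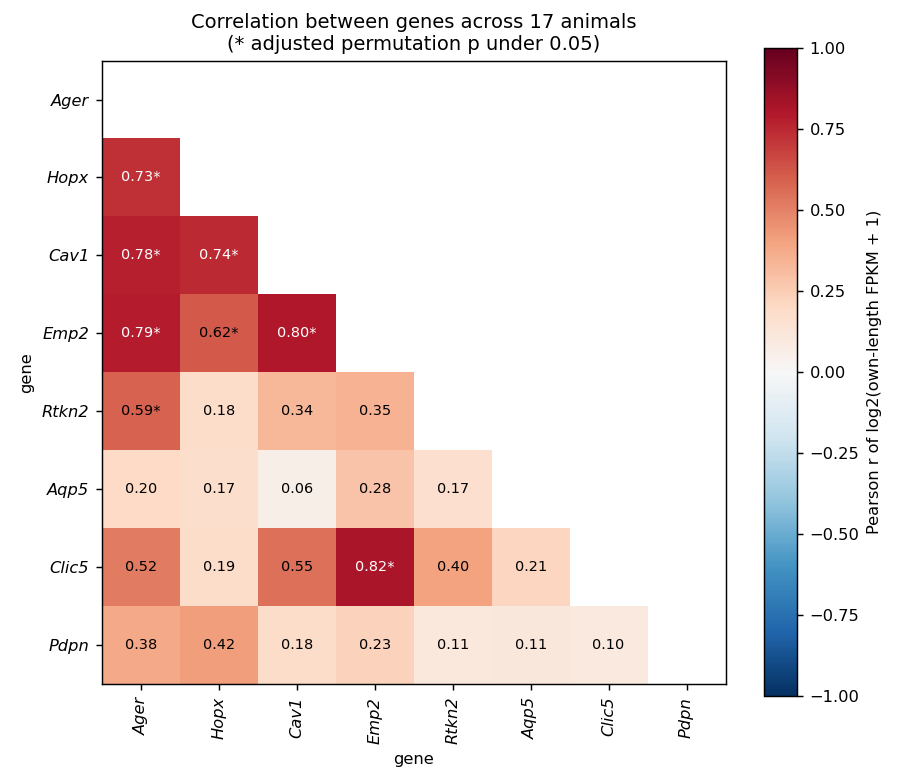
Pearson r between each pair of genes across 17 animals (colour and printed value, both axes genes). Stars mark adjusted permutation p under 0.05. *Ager*, *Hopx*, *Cav1* and *Emp2* form a block of starred pairs, and *Aqp5* and *Pdpn* have none.

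The 8 genes were also set against 11 genes of other cells and of their own neighbourhood, chosen after the data had been seen, which gave 88 relations. Of these, 2 passed after adjustment over the 88, and both were with *Cav2*, the caveolin that forms the coat together with *Cav1*. They were *Cav1* with *Cav2*, at r = 0.870 (permutation p = 2e-05, adjusted p = 0.00176), rho = 0.765 (permutation p = 0.00050, adjusted p = 0.0440) and r = 0.728 without 2 animals, and *Hopx* with *Cav2*, at r = 0.771 (permutation p = 0.00025, adjusted p = 0.0110), rho = 0.706 (adjusted p = 0.0924) and r = 0.685 without 2 animals. Between deviations from group means r was 0.870 and 0.747, and a further relation passed the adjustment there, *Cav1* with the endothelial cadherin *Cdh5* (r = 0.722, permutation p = 0.00112, adjusted p = 0.0329). *Scgb1a1*, the secretoglobin of airway club cells, had r below 0 with 8 of 8 genes (from -0.491 to -0.150), and so did *Myl7*, the atrial myosin light chain (from -0.444 to -0.00756). *Nkx2-1*, the lung lineage factor, and *Sftpb*, a surfactant protein, had r above 0 with 8 of 8 (from 0.133 to 0.577 and from 0.0135 to 0.648). *Abca3*, the other type 2 cell gene among the 11, had r above 0 with only 4 of 8 (from -0.364 to 0.419). None of the relations with *Scgb1a1*, *Myl7*, *Nkx2-1*, *Sftpb* or *Abca3* passed the adjustment.

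Across the 13192 genes averaging 100 reads or more, the median r with the average of the 8 genes was 0.0474, and 57 genes exceeded 0.8. The 5 closest genes outside the lists were *Ttc7b* (r = 0.930, 35.1 to 58.1 FPKM), *Flrt3* (0.924, 5.51 to 20.2 FPKM), *Ablim3* (0.922, 32.4 to 58.5 FPKM), *Fgf1* (0.921, 16.6 to 31.2 FPKM) and *Tp53bp2* (0.917, 41.0 to 84.5 FPKM), over 17 animals. *Flrt3* encodes a leucine-rich membrane protein, *Ablim3* an actin-binding LIM protein and *Fgf1* a fibroblast growth factor. Each r is a description, since the genes were picked for being highest.

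Of 23 further genes of type 1 cells, 21 could be tested, and their levels ran from a mean of 9.16 FPKM for *Fstl3* to 389 FPKM for *Sec14l3* and 372 FPKM for *Gprc5a*. *Akap5*, an anchoring protein for protein kinase A, was the most alike of them, with r = 0.942 to the average of the 8 genes, and ran from 53.3 to 126 FPKM. *Fstl3* was the least alike, at r = -0.556, and the median r was 0.692. 0 of 21 were called. The median log2 fold change was 0.12 for bond-disrupted against bonded males (15 of 21 above 0, beside 7654 of all 14928 genes). It was 0.07 for virgin against bonded and -0.12 for virgin against bond-disrupted males. At an unadjusted p under 0.05 there were 2 higher and 0 lower of 21 in bond-disrupted against bonded males, where 2.67% of all genes were higher and 2.99% lower. There were 1 higher and 2 lower in virgin against bonded males, where 2.06% and 1.48% were, and 0 in virgin against bond-disrupted males, where 2.15% and 1.99% were.

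The largest difference in this list was *Igfbp2*, an insulin-like growth factor binding protein found in mature type 1 cells. It read 24.6 ± 31.6 FPKM (SD, n = 6) in bonded, 12.4 ± 14.4 (n = 6) in bond-disrupted and 1.22 ± 2.28 (n = 5) in virgin males. The range was 0.611 to 81.1 FPKM in bonded, 0.183 to 34.1 FPKM in bond-disrupted and 0.154 to 5.30 FPKM in virgin males, so the groups overlapped. The log2 fold change of virgin against bonded males was -2.54 (SE 1.14, limma adjusted p = 1). *Timp3*, an inhibitor of matrix metalloproteinases, followed with -0.42 (SE 0.19, adjusted p = 1) in the same comparison, from 241 ± 39.3 to 187 ± 69.4 FPKM.

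Of the type 2 cell genes, *Sftpc*, surfactant protein C, stood at 19872 ± 4547 FPKM (SD, n = 17), and *Sftpc* and *Sftpb* were above *Ager* in the mean over animals. The other 6 were below *Hopx*, from 659 FPKM for *Sftpd* to 51.8 FPKM for *Abca3*. 0 of 8 tested were called. Their median log2 fold change was 0.22 for bond-disrupted against bonded males (8 of 8 above 0, beside 7654 of all 14928 genes). It was 0.09 for virgin against bonded and -0.08 for virgin against bond-disrupted males. At an unadjusted limma p under 0.05, 1 of 8 was higher and 0 lower in bond-disrupted against bonded males, beside 2.67% and 2.99% of all genes. The same counts held in virgin against bonded males, beside 2.06% and 1.48%, and the gene was *Sftpb* each time. Both were 0 in virgin against bond-disrupted males, beside 2.15% and 1.99%. *Sftpb* read 2312 ± 361 FPKM in bonded, 3109 ± 471 in bond-disrupted and 3049 ± 561 in virgin males, with log2 fold changes of 0.43 (SE 0.14, limma adjusted p = 0.845) and 0.39 (SE 0.14, adjusted p = 1) against bonded males. *Slc34a2*, the phosphate transporter of type 2 cells, read 237 ± 50.4, 316 ± 115 and 330 ± 80.4 FPKM, and its log2 fold change of virgin against bonded males was 0.47 (SE 0.23, adjusted p = 1).

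Genes of the transitional state between type 2 and type 1 cells gave 0 calls among 6 tested. *Krt8*, a keratin of that state, was at 104 ± 15.0 FPKM, and *Sfn* was low at 0.468 ± 0.222 FPKM. *Cldn4*, a tight junction protein, read 12.4, 13.2 and 10.1 FPKM as group means with a largest log2 difference of -0.29 (SE 0.36, virgin against bond-disrupted). *Lgals3*, galectin 3, read 116, 132 and 110 FPKM and its largest difference was -0.28 (SE 0.16) in the same comparison, at an adjusted p of 0.952 for both. The medians of the list were 0.11, -0.07 and -0.16.

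Of the factors that direct alveolar cell identity, 0 of 12 were called, and the medians were 0.08, 0.06 and -0.02. At an unadjusted p under 0.05, 1 of 12 was higher in each comparison, where 2.67%, 2.06% and 2.15% of all genes were. It was *Klf5*, a Krüppel-like factor, at 0.22 (limma adjusted p = 0.881) and 0.25 (adjusted p = 1) against bonded males, and *Grhl2*, a factor of epithelial junctions, at 0.23 (adjusted p = 0.952) in virgin against bond-disrupted males. *Nkx2-1* was at 41.5 ± 5.76 FPKM, *Yap1* and *Wwtr1*, the coactivators of the Hippo pathway that favour type 1 fate, at 23.9 ± 2.34 and 31.8 ± 5.94 FPKM, and *Tead4*, one of their DNA-binding partners, at 8.82 ± 1.23 FPKM. The largest differences were -0.30 (SE 0.16, adjusted p = 1) for *Sox9* in virgin against bonded males, from 3.37 ± 0.972 to 2.49 ± 0.484 FPKM, and -0.28 (SE 0.17, adjusted p = 0.952) for *Wwtr1* in virgin against bond-disrupted males. *Tead4* was the factor most like the 8 genes across animals (r = 0.832) and *Sox9* the least (r = -0.629).

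Among the partners of *Cav1* in caveolae, 0 of 5 tested were called, and the medians were 0.10, 0.07 and 0.01. *Cavin1*, which shapes the coat, was at 220 ± 32.1 FPKM, *Cav2* at 173 ± 32.0 FPKM and *Cavin2* at 139 ± 24.6 FPKM, and *Cavin4*, known from muscle, averaged 0.0254 FPKM and was too low to be tested. *Pacsin2*, a membrane-bending protein, read 35.2 ± 1.499, 40.1 ± 1.76 and 40.5 ± 4.00 FPKM, with log2 fold changes of 0.18 (SE 0.06, limma adjusted p = 0.845) and 0.19 (SE 0.07, adjusted p = 1) against bonded males. Its highest bonded animal (36.7 FPKM) lay below its lowest bond-disrupted animal (37.1 FPKM), an absence of overlap found for 0.248% of all genes, while virgin animals, from 33.99 to 44.3 FPKM, overlapped both. *Cavin1* was at 0.20 (SE 0.12) in virgin against bonded males.

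Ligands of the *Ager* receptor could be tested for 3 of 8 genes, with 0 called and medians of 0.05, -0.01 and -0.06. *App*, the amyloid precursor, read 381 ± 58.6, 399 ± 27.0 and 380 ± 70.2 FPKM in bonded, bond-disrupted and virgin males. *Hmgb1*, the chromatin protein that acts as an alarmin outside the cell, read 78.6 ± 5.42, 74.8 ± 16.05 and 73.2 ± 8.08 FPKM. *App* followed the average of the 8 genes across animals at r = 0.791 and *Hmgb1* did not (r = -0.0898).

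Relatives of the 8 genes were mostly lower than the type 1 cell member of the family. Per length, *Emp2* (370 FPKM) exceeded *Pmp22* (196), *Emp1* (49.5) and *Emp3* (10.9), and *Rtkn2* (126) exceeded *Rtkn* (3.30). *Cav1* (465.5) exceeded *Cav2* (173) and *Cav3* (1.52), and *Aqp5* (126) exceeded *Aqp1* (27.8), *Aqp3* (4.08) and *Aqp4* (1.90). *Clic5* (115) was the exception, below *Clic4* (219) and *Clic1* (171), near *Clic3* (107) and above *Clic6* (8.08). 0 of 13 relatives were called, and the medians were 0.03, 0.06 and 0.08. *Aqp4* read 1.41 ± 0.421, 1.64 ± 0.404 and 2.79 ± 1.95 FPKM, at 0.55 (SE 0.22, limma adjusted p = 1) for virgin against bonded males. *Cav3* read 1.96 ± 0.832, 1.07 ± 0.445 and 1.52 ± 0.832 FPKM, at -0.48 (SE 0.21, adjusted p = 0.870) for bond-disrupted against bonded males.

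Some of the 8 genes are known from other cells of the lung, so genes of those cells were read beside them. *Cav1* is also abundant in endothelium, where *Pecam1* was at 203 ± 34.02 FPKM and *Cdh5* at 193 ± 32.4 FPKM. 0 of 9 endothelial genes were called, with median log2 fold changes of 0.04, 0.09 and 0.06 in the 3 comparisons, and the largest differences were 0.46 (SE 0.31) for *Vwf* in virgin against bonded males and 0.30 (SE 0.20) for *Cldn5* in virgin against bond-disrupted males. Summed endothelial levels ran from 890 to 1183, 761 to 1280 and 915 to 1269 FPKM in bonded, bond-disrupted and virgin males. Across the 17 animals *Cav1* gave r = 0.563 with *Cdh5* and 0.575 with *Pecam1*, neither of which passed the adjustment over 88 relations (adjusted permutation p = 0.182 and 0.174). Their rho was 0.434 and 0.534, and r without 2 animals was 0.315 and 0.597. Between deviations from group means these were 0.722, which passed, and 0.561, which did not. How much of the *Cav1* level comes from endothelium was not tested.

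*Pdpn* is also known from lymphatic endothelium and from mesothelium. Lymphatic genes gave 0 calls of 4 tested and medians of 0.10, 0.02 and -0.01, with *Lyve1* at 55.0 ± 33.3 FPKM, *Mmrn1* at 3.65 ± 1.43 FPKM and *Prox1*, the defining factor, at 0.692 ± 0.220 FPKM. *Lyve1* had the largest difference, -0.52 (SE 0.38) for virgin against bond-disrupted males, and *Mmrn1* was at 0.16 (SE 0.26) for virgin against bonded males. Mesothelial genes gave 0 calls of 4 and medians of 0.08, 0.02 and -0.04, with *Upk3b* at 13.6 ± 4.98 FPKM and *Wt1* at 0.8002 ± 0.387 FPKM. *Lrrn4* was at 0.47 (SE 0.39) and *Upk3b* at -0.32 (SE 0.33) for bond-disrupted against bonded males.

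The airway, heart and immune genes were present in every group and their levels overlapped. *Scgb1a1* ran from 49032 to 171963 FPKM over the 17 animals. 0 of 4 airway genes were called, the medians were -0.41, 0.09 and 0.21, and the largest differences were 0.83 (SE 0.75) for *Scgb3a2* in virgin against bond-disrupted males and, for *Muc5b*, a mucin, -0.84 (SE 0.50) for virgin against bonded males. 0 of 7 cardiac muscle genes were called, with medians of -0.15, 0.07 and 0.25, *Tnnt2* at 0.37 (SE 0.46) for virgin against bond-disrupted and *Actc1* at -0.32 (SE 0.43) for bond-disrupted against bonded males. Their summed level ran from 44.7 to 490, 86.1 to 267 and 114 to 363 FPKM in bonded, bond-disrupted and virgin males. 0 of 5 immune genes were called, with medians of 0.09, 0.08 and 0.20, *Marco*, a macrophage receptor, at -0.52 (SE 0.50) for virgin against bond-disrupted males and *Ptprc*, the leukocyte antigen CD45, at 0.32 (SE 0.37) for virgin against bonded males.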

How the data were processed

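Whole lung RNA of 17 males was sequenced, 1 library per animal, from a directional kit. Per the labels' tool list, reads were trimmed with Trim Galore 0.4.5, aligned with STAR 2.7.2 and counted with featureCounts (Subread 1.5.3). The genome build and the strand setting are not given in the sources used here. The authors deposited 1 FPKM table, in which animal j of gene g was divided by the length of a gene j rows above. Depth was set for each library as the number at which the RefSeq lengths of small RNA genes gave whole reads. Each length was then solved as the whole number that turns the values divided by it into multiples of 0.01 reads. The result was 25968 of 27787 lengths, of which 6321 also needed the level of their genes in other animals to choose between multiples. *Ager* (1702 bases) is among these. For 1513 small RNA genes 1454 solved lengths equal those of RefSeq assembly ASM782708v3, in which all 27786 names were found. Since depth was set with the RefSeq lengths of small RNA genes, this match is not an independent check. Whether depth counts reads or pairs is open, a factor common to all animals.

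Own-length FPKM were tested as log2(FPKM + 1) with limma 3.58.1 in R 4.3.3, the 3 groups in 1 fit, keeping genes that reached 1 FPKM in 1 or more animals, Benjamini-Hochberg adjustment over 14928 genes within each comparison, and calls at an adjusted p under 0.1 and at least 2-fold. The pseudocount understates changes of low genes. Depth limits precision little here, since each of the 136 values rests on 1396 reads or more. Correlations are Pearson and Spearman, each with a permutation test of 100000 resamples, adjusted over 28 pairs. The r without 2 animals leaves out those farthest from the median of the first gene, and for the 11 further genes from the median of that gene.

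On simulated data for bond-disrupted against bonded males, 99.5% of 26018 solved lengths were right. There limma over 14420 genes called 100% of 4-fold increases and 94% of 4-fold decreases. It called 21.3% of 2-fold increases and 10.6% of 2-fold decreases. The median log2 fold changes estimated for these 2-fold changes were 0.90 and -0.82, short of the 2-fold that a call requires. Whether the rates hold for genes that vary as much as *Aqp5*, *Clic5* and *Rtkn2* was not tested. The 8 genes and the 13 other lists were chosen with earlier results of these data known. Of each other list, the 2 genes with the largest absolute log2 fold change are named, with any gene called or under an adjusted p of 0.1. Other genes named for their levels were chosen after their values were seen. Promoter motifs were not analysed here.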

Additional observations from a re-analysis of the deposited data

How the results depend on the processing

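The count of 0 called genes held in the 3 comparisons under each alternative except the deposited FPKM without the length correction, which called 40, 113 and 35 genes and left 0 of the 28 pairs of the 8 genes correlated, against 8. The alternatives were pseudocounts of 0.1 and 0.01, other filters, scalings, thresholds and variance models, 2-group fits, and leaving out each animal in turn. The correlated pairs ranged from 6 (without BD3) to 9 (without BD6) when single animals were left out, and were 8 and 9 under median-ratio and quantile scaling, which were chosen after seeing the data.

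With the deposited values, log2 fold changes turned for bond-disrupted against bonded males in *Ager* (-0.35), *Aqp5* (0.71), *Rtkn2* (0.16), *Clic5* (-0.55) and *Emp2* (-0.0883), for virgin against bonded males in *Ager* (-0.35) and *Emp2* (-0.94), and for virgin against bond-disrupted males in *Cav1* (0.0114) and *Rtkn2* (-0.87). So did r for *Ager* with *Pdpn* (-0.0266), *Cav1* (-0.521) and *Rtkn2* (-0.227), *Hopx* with *Aqp5* (-0.0733), *Cav1* (-0.251) and *Rtkn2* (-0.407), *Pdpn* with *Aqp5* (-0.468), *Rtkn2* (-0.330) and *Emp2* (-0.177), and *Rtkn2* with *Clic5* (-0.341). Least squares turned *Cav1* (-0.0963) in bond-disrupted against bonded, and *Cav1* (-0.10) and *Emp2* (-0.0183) in virgin against bonded males. In virgin against bond-disrupted males quantile normalization turned *Ager* (0.00599), *Cav1* (0.0213) and *Emp2* (0.0455), and median-ratio scaling *Rtkn2* (-0.00636). Deviations from group means turned *Pdpn* with *Clic5* (-0.0430). The deposited values carry the lengths of other genes, and for the rest the cause was not tested.

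Without single animals the ranges across 0 were -0.28 to 0.14 (*Aqp5*), -0.00684 to 0.24 (*Pdpn*, lowest without B6) and -0.17 to 0.0863 (*Rtkn2*) for bond-disrupted against bonded males. They were -0.0469 to 0.13 (*Hopx*) and -0.17 to 0.0614 (*Rtkn2*) for virgin against bonded males, and -0.13 to 0.0526 (*Cav1*), -0.15 to 0.11 (*Rtkn2*) and -0.15 to 0.10 (*Emp2*) for virgin against bond-disrupted males. For r they were -0.0670 to 0.268 (*Aqp5* with *Pdpn*), -0.0821 to 0.146 (*Aqp5* with *Cav1*), -0.139 to 0.290 (*Aqp5* with *Rtkn2*), -0.250 to 0.309 (*Pdpn* with *Cav1*) and -0.0451 to 0.193 (*Pdpn* with *Clic5*), and B6 was the animal left out at each lowest r but that of *Aqp5* with *Rtkn2*, where it was BD2.

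The replicate block, with the animal's number as a term, left 0 genes called in each comparison. It moved *Rtkn2* (to 0.0352), *Hopx* (0.04 to 0.11), *Cav1* (0.10 to 0.15) and *Ager* (0.13 to 0.21) in virgin against bonded males, and in virgin against bond-disrupted males *Ager* (-0.10 to -0.0230), *Cav1* (-0.06 to -0.00958), *Emp2* (-0.05 to -0.0124) and *Rtkn2* (0.00715 to 0.11). For bond-disrupted against bonded males it took the unadjusted p of *Ager* from 0.161 to 0.0411 (adjusted p = 0.875), that of *Hopx* from 0.151 to 0.0625 and that of *Emp2* from 0.0601 to 0.0741. For virgin against bonded males that of *Ager* went from 0.443 to 0.0786. Correlations of same-numbered animals' deviations from group means were above 0 in 6 of 6 bonded and bond-disrupted pairs and above 0.1 in 5 (0.0853 to 0.410), and 4 of 6 animals of either group correlated best with their own number. With virgins they were above 0.1 in 1 of 5 bonded and 0 of 5 bond-disrupted pairs. As not every pair passed 0.1, the fits reported first have no block, and their p-values and those of the permutations take related animals as independent. Standard errors of the 8 genes ran to 0.35, for *Aqp5*.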

Other observations

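The genes of other cells differed in how they followed the average of the 8 type 1 cell genes across the 17 animals, given as Pearson's r and as a description. Of the 4 airway epithelium genes, each had r below 0, from -0.838 for *Foxj1*, the factor of ciliated cells, to -0.366 for *Scgb3a2*. Of the 6 cardiac muscle genes with enough reads, each was also below 0, from -0.464 for *Ryr2* to -0.267 for *Sln*. The 8 type 2 cell genes ran from -0.291 for *Sftpd* to 0.541 for *Sftpc*, with a median of 0.350, and the 9 endothelial genes from 0.101 for *Pecam1* to 0.630 for *Kdr*. In the transitional list, *Itgb6*, an integrin subunit, was at 0.743 and *Krt18*, a keratin, at -0.485. All points share the libraries of the same animals.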
